A study of Homo sapiens with 6 samples.

Results

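The 10 glutathione S-transferase (GST) genes described here are GSTA1, GSTA2, GSTA4, GSTM2, GSTM3, GSTM4, GSTP1, GSTO1, GSTK1 and MGST1. They were found by gene symbol among the 26184 genes and loci of the deposited table. The 10 were selected with their values in the very contrast described here known, so their levels are given as a description. No p-value is given for any of them, and how many pass the thresholds of the fit is counted only beside the same share of all genes. GST enzymes join glutathione to electrophilic molecules, such as reactive drug metabolites and products of lipid peroxidation, and the conjugates are then pumped out of the cell. The soluble enzymes fall into classes named by Greek letters. Normal hepatocytes are rich in alpha class enzymes, whereas the pi class enzyme GSTP1 is scarce in them and abundant in many tumours.

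The samples were Huh7 P, a parental human hepatocellular carcinoma line, and Huh7 LR, a lenvatinib-resistant line derived from it. Lenvatinib inhibits receptor tyrosine kinases, among them those for VEGF and FGF. Both groups have the genotype WT. Huh7 P received no treatment and has time 0, while Huh7 LR was exposed to 1 to 20 μM lenvatinib for 10 months. Poly(A) RNA from 3 samples of each line was sequenced, to between 62738937 and 71427573 counts per library. Huh7 LR is 1 derived line, so the p-values given for other genes measure the spread between these samples, and resistance and separate culture cannot be told apart. Once established, Huh7 LR was kept in lenvatinib, and the sources used here do not state whether the drug was present at harvest. All 8 hepatocyte markers examined were expressed in all 6 libraries.

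The alpha class genes GSTA1 and GSTA2 set the GST profile of Huh7 LR apart from that of Huh7 P. GSTA1 was 16.7-fold higher and GSTA2 10.6-fold higher in Huh7 LR, while GSTP1, the most abundant of the 10 in both lines, lay within 1.11-fold of its Huh7 P level. The mu class gene GSTM3 was 2.97-fold higher, from a low level. GSTA4, GSTM2 and GSTK1 were higher by 1.31-fold to 1.46-fold, and GSTM4, GSTO1 and MGST1 overlapped between the lines. In bulk RNA, fewer cells with a transcript and less of it per cell cannot be told apart.

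Levels of 1 gene in different libraries are given here as CPM, the usual unit of counts scaled to library depth, with depth adjusted by trimmed mean of M-values (TMM) factors. Levels of different genes are compared as FPKM, fragment counts scaled for transcript length and sequencing depth, as deposited by the authors. Counts of different genes are also set side by side within summed genes and in the ratio of GSTA1 to GSTA2. Means carry the standard deviation (SD) over n = 3 libraries, and log2 fold changes, Huh7 LR minus Huh7 P, carry the standard error (SE) of edgeR's fit. All 10 genes passed the filter on low counts. With the adjusted p of edgeR's fit below 0.05, 6 of the 10 were higher and 0 lower, where 23.3% of all 17531 genes and loci tested were higher and 22.4% lower. Below 0.001 and with a change above 2-fold, termed called from here on, 3 of the 10 were higher and 0 lower, against 4.43% and 1.78% of all tested. In CPM, the 3 Huh7 LR libraries all exceeded the 3 of Huh7 P for 6 of the 10 genes and all fell short of them for 1, against 28.2% and 27.7% of all tested. Nothing is read from these counts, because the genes were chosen on the same contrast.

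GSTA1 and GSTA2 encode the main alpha class enzymes of human liver, which also reduce lipid hydroperoxides. GSTA1 stood at 8.15, 9.58 and 11.2 CPM in the Huh7 P libraries, against 146, 166 and 172 CPM in those of Huh7 LR. GSTA2 stood at 8.95, 9.92 and 9.64 CPM in Huh7 P and at 89.5, 103 and 109 CPM in Huh7 LR. The lowest Huh7 LR library exceeded the highest Huh7 P library many times over for both genes, and no library stood between the groups. The mean of GSTA1 went from 9.63 ± 1.51 to 161 ± 13.1 CPM, a log2 fold change of 4.07 (SE 0.12). For GSTA2 the means were 9.50 ± 0.50 and 100.5 ± 9.83 CPM, a log2 fold change of 3.40 (SE 0.09). In the order of log2 fold change from the top, GSTA1 had place 42, GSTA2 place 78 and GSTM3 place 540 among all 14053 annotated genes tested. Among the 11735 of them with at least 1 CPM in every library, the places were 2, 6 and 129, and the other 7 genes lay at place 1405 or beyond.

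**Figure D1:**
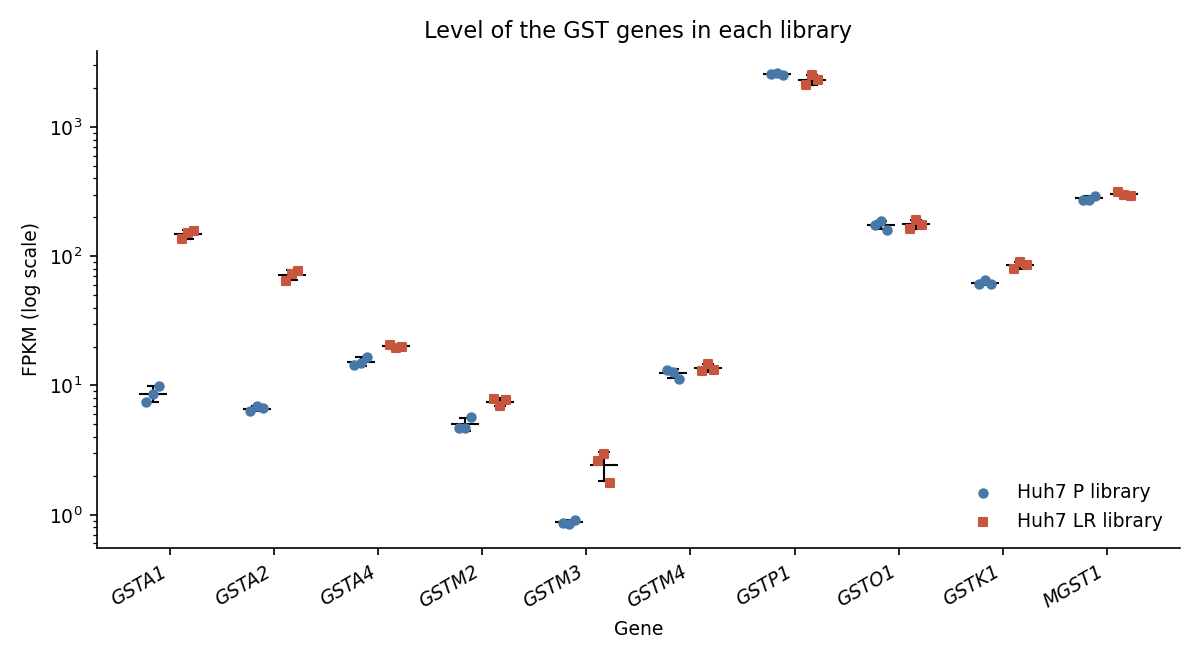
FPKM (log scale) of the 10 GST genes in each library, with circles for Huh7 P, squares for Huh7 LR, and bars for the mean and SD of n = 3. The GSTA1 libraries sit between 7.42 and 9.97 FPKM in Huh7 P and between 136 and 157 FPKM in Huh7 LR, while GSTP1 is at 2126 FPKM or more in all 6 libraries.

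The remaining alpha class member differed far less. GSTA4, whose enzyme conjugates hydroxynonenal and related aldehydes from lipid peroxidation, measured 20.3, 20.9 and 23.8 CPM in Huh7 P. In Huh7 LR it measured 29.1, 27.6 and 28.2 CPM, above all Huh7 P libraries by a narrow margin. Its log2 fold change was 0.39 (SE 0.09). The alpha class genes GSTA3 and GSTA5, outside the 10, had 0 counts in all 6 libraries and 1 count in 1 library, respectively. A count of 0 allows up to 3 counts, or 0.0478 CPM before TMM scaling in the shallowest library, and this limit covers counting error only.

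GSTA1 and GSTA2 lie on the minus strand of chromosome 6, in a cluster with GSTA3, GSTA4 and GSTA5 that spans 245.3 kb of GRCh38 in GENCODE release 29. Their coding sequences there are both 666 bases long and differ at 22 bases, an identity of 96.7%, and the longest identical run is 209 bases. GSTA1 and GSTA4 share 61.9% of coding bases. Of all the 100-base windows in the transcripts of GSTA1, 9.85% also occur in GSTA2, and 9.06% of those of GSTA2 occur in GSTA1. Reads from these windows cannot be told apart, so the genes are also given as a sum. For 50-base windows found in any other gene, the shares are 26.2% for GSTA1 and 18.4% for GSTA2, and for GSTA4 the share is 0 at both lengths.

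The summed counts of GSTA1 and GSTA2 were 1227, 1203 and 1360 in the Huh7 P libraries, against 15379, 18835 and 19112 in those of Huh7 LR. As CPM the sum went from 19.1 ± 1.88 to 262 ± 23.0, a log2 fold change of 3.77 (SE 0.10) or 13.7-fold. This value lies between those of the single genes and does not depend on which of them a shared read was assigned to. Adding GSTA3 and GSTA5 left the log2 fold change at 3.77, and adding GSTA4 as well lowered it to 2.83 (SE 0.09), because GSTA4 differed little and held more counts than GSTA1 or GSTA2 in Huh7 P. The balance within the pair also differed between the lines. GSTA1 counts divided by GSTA2 counts gave 0.911, 0.966 and 1.16 for the Huh7 P libraries, against 1.64, 1.6 and 1.58 for those of Huh7 LR. The means were 1.01 ± 0.13 and 1.61 ± 0.03, with no overlap. In FPKM the ratio was 1.304 ± 0.17 in Huh7 P and 2.07 ± 0.04 in Huh7 LR, so per length GSTA1 exceeded GSTA2 in both lines, and by more in Huh7 LR. For Huh7 P this rests on the transcript lengths used for FPKM, since the ratio of counts there lay on both sides of 1. Shared reads can pull this ratio toward 1 or away from it, and their part in it was not tested.

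**Figure D2:**
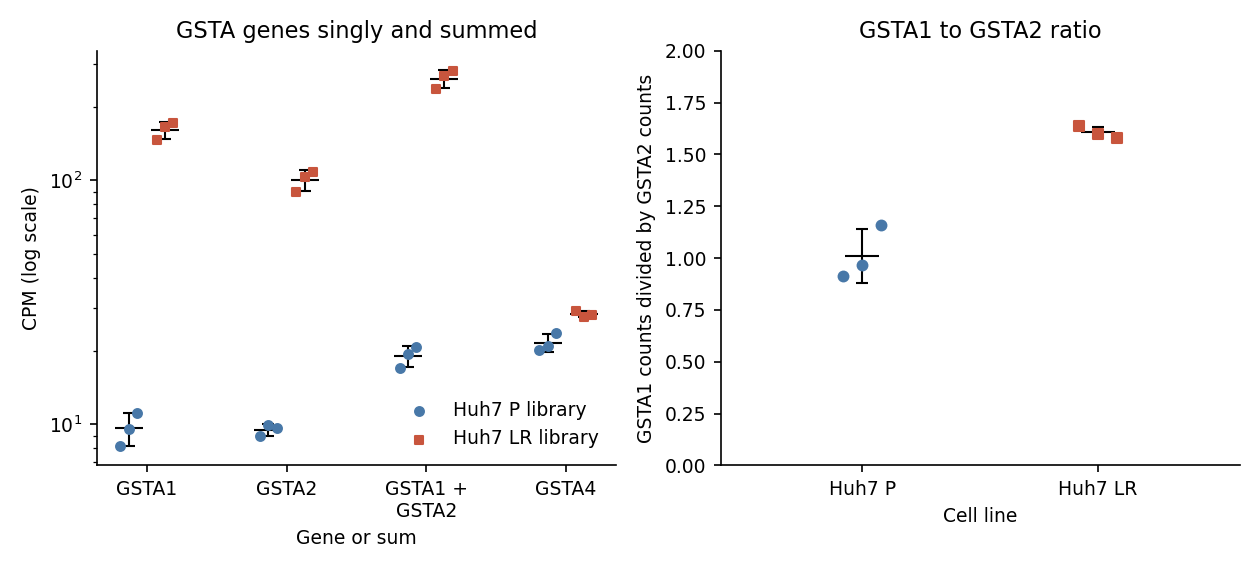
Left, CPM (log scale) of GSTA1, GSTA2, their sum and GSTA4 in each library; right, GSTA1 counts divided by GSTA2 counts. Points are libraries and bars the mean and SD of n = 3; the ratio lies at or under 1.16 in Huh7 P and at or above 1.58 in Huh7 LR.

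The sequence before the start of GSTA1 and GSTA2 is shown as a description, and its part in their levels was not tested. RefSeq promoter windows exist for all 10 genes, 12 windows in all. The 250 bases before the RefSeq start differ at 7 places between GSTA1 and GSTA2, an identity of 97.2%. The first exon in GENCODE release 29 begins 94 bases earlier than the RefSeq start, so only the 156 bases before both starts are printed, from GRCh38.p14, minus strand, at chr6:52803911-52804066 for GSTA1 and chr6:52763570-52763725 for GSTA2. Capitals mark the 4 bases that differ within them.
GSTA1: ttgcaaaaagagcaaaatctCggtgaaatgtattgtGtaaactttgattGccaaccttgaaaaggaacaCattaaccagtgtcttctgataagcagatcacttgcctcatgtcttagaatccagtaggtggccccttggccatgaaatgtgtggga
GSTA2: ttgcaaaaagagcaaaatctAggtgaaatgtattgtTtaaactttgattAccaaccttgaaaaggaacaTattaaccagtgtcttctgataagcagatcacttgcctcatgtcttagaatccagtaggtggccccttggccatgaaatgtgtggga

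The windows of all 10 genes were searched on both strands for 3 short motifs. TATAAA, the TATA box letters, lies 30 bases before the RefSeq starts of GSTA1 and GSTA2, beyond the printed stretch, and occurs in 10.8% of all 34788 RefSeq windows of 250 bases. TGANNNNGC, the letters at the core of the antioxidant response element bound by NRF2, occurs in 35.1% of windows. It is present in those of GSTA4, GSTM2, GSTM4, GSTP1, GSTO1 and GSTK1 and has no match in those of GSTA1, GSTA2, GSTM3 and MGST1. GSTP1 holds it as TGACTCAGC 66 bases before its start, overlapping TGACTCA, the letters of the AP-1 site, which occur in 4.21% of windows. TATAAA is also held for MGST1, and on the opposite strand for GSTO1, and the GSTM3 window holds none of the 3 motifs. Matches describe letters only and show no binding.

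The mu class genes lie in a cluster of 119.3 kb on chromosome 1 and differed among themselves. GSTM3, best known from testis and brain, measured 2.68, 2.38 and 2.45 CPM in Huh7 P and 6.97, 9.12 and 6.24 CPM in Huh7 LR. The groups do not overlap, and Huh7 LR spread more widely, at 7.44 ± 1.497 CPM against 2.502 ± 0.15 CPM. The log2 fold change was 1.57 (SE 0.16), and 0.86 with limma-trend on log2(FPKM + 1), where the added 1 exceeds the mean GSTM3 level of 0.872 FPKM in Huh7 P. GSTM2, the mu class enzyme known from muscle, measured 5.91, 6.01 and 7.25 CPM in Huh7 P and 9.64, 8.65 and 9.601 CPM in Huh7 LR, with no overlap. Its log2 fold change was 0.54 (SE 0.12). GSTM4 measured 22.7, 21.6 and 19.1 CPM in Huh7 P and 21.7, 24.1 and 21.2 CPM in Huh7 LR, and the lines overlapped. Of these 3 genes, the one with the lowest level thus differed most between the lines.

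Neighbouring mu class genes share sequence. GSTM2 shares 375 exon bases with GSTM4 and 559 with GSTM1 on the same strand. Of its 100-base windows, 12.9% occur in another gene, against 7.11% for GSTM4 and 2.11% for GSTM3. The shared windows of GSTM3 all occur in the antisense gene AL158847.1, not in a mu class gene. GSTM1, which is absent from many human genomes and is outside the 10, had 92 to 115 counts per library, and 28.3% of its windows occur in GSTM2. Whether reads of GSTM2 were counted for it was not tested. Summing GSTM1, GSTM2, GSTM4 and GSTM5 gave 29.03 ± 1.13 CPM for Huh7 P and 33.2 ± 1.01 CPM for Huh7 LR, with a log2 fold change of 0.19 (SE 0.07). The sum therefore moved less than GSTM2 did, since GSTM4 holds most of its counts. GSTM5 had 0 counts in all 6 libraries.

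GSTP1, the pi class gene, dominated the 10 genes in both lines. It measured 2089, 2144 and 2075 CPM in Huh7 P and 1721, 2055 and 1909 CPM in Huh7 LR. All Huh7 LR libraries were below those of Huh7 P, though Huh7 LR library 2 was close to the lowest of them, and in FPKM the lines overlapped. The log2 fold change was -0.15 (SE 0.08), and -0.09 without Huh7 LR library 1. By mean FPKM, GSTP1 had place 12 among 19974 annotated genes in Huh7 P and place 14 in Huh7 LR. Its level was thus near the top of the transcriptome whichever line was measured.

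The genes of the remaining soluble and membrane enzymes overlapped between the lines or were slightly higher in Huh7 LR. GSTO1, the omega class enzyme that reduces dehydroascorbate, measured 178, 186 and 167 CPM in Huh7 P and 158, 197 and 172 CPM in Huh7 LR. Its log2 fold change of -0.01 (SE 0.09) ranged from -0.09 to 0.06 over the alternatives, so no direction is given. MGST1, a glutathione transferase of the endoplasmic reticulum and mitochondrial outer membranes, measured 267, 271 and 292 CPM in Huh7 P and 302, 290 and 285 CPM in Huh7 LR. These groups overlapped too, with a log2 fold change of 0.08 (SE 0.07). GSTK1, the kappa class enzyme of mitochondria and peroxisomes, measured 86.2, 91.4 and 87.7 CPM in Huh7 P and 110.5, 121 and 117 CPM in Huh7 LR. All its Huh7 LR libraries were above all its Huh7 P libraries, with a log2 fold change of 0.40 (SE 0.07). Replicates of these 3 genes spread by 3.0% to 11.2% of the mean.

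**Figure D3:**
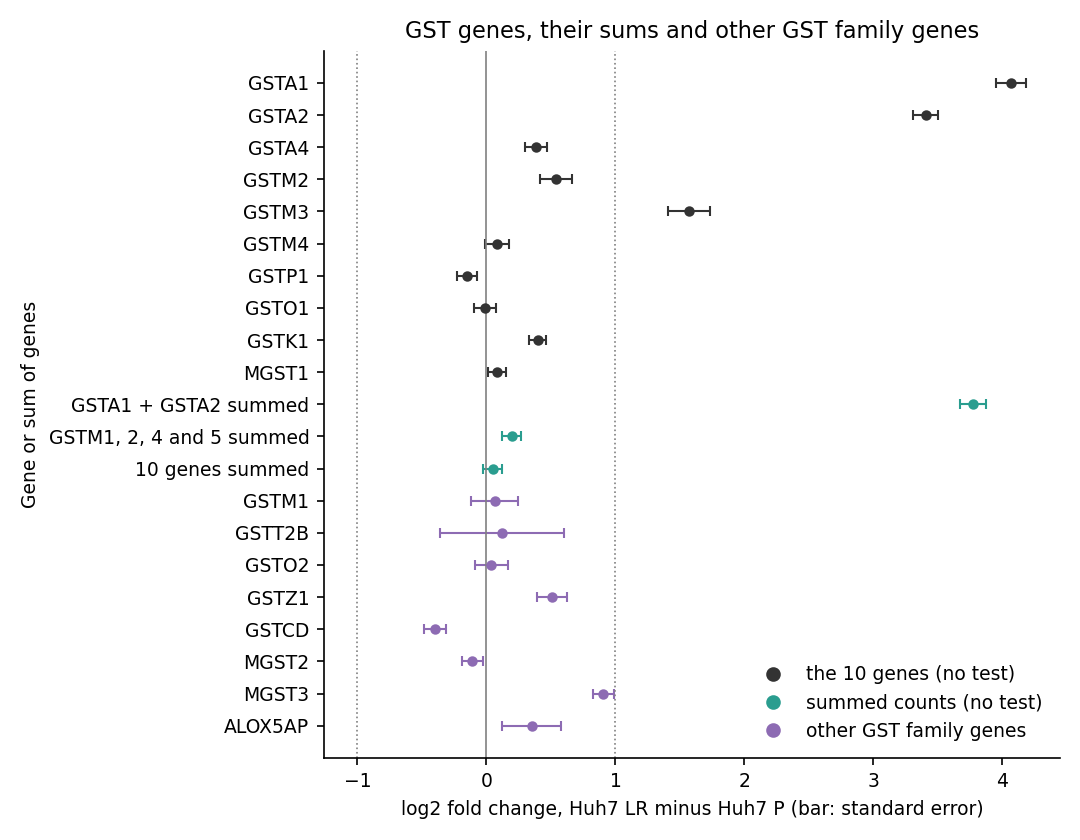
Log2 fold change, Huh7 LR minus Huh7 P, of the 10 GST genes, of summed counts and of the other GST family genes tested, with bars for the SE and dotted lines at 2-fold. GSTA1, GSTA2, their sum and GSTM3 lie beyond 2-fold, and the sum of all 10 genes lies at 0.05.

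Per length, the order of the 10 genes in Huh7 P was GSTP1, MGST1, GSTO1, GSTK1, GSTA4, GSTM4, GSTA1, GSTA2, GSTM2 and GSTM3. In Huh7 LR it was GSTP1, MGST1, GSTO1, GSTA1, GSTK1, GSTA2, GSTA4, GSTM4, GSTM2 and GSTM3. No neighbours in either order overlapped over their 3 libraries in FPKM. GSTA1 moved from place 7 to place 4 and GSTA2 from place 8 to place 6, and the other 8 genes kept their order relative to each other. Among the 19974 annotated genes, GSTA1 went from place 6262 to place 331 by mean FPKM and GSTA2 from place 7187 to place 806.

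The pool of the 10 transcripts was of similar size in both lines, and its make-up differed. Summed FPKM was 3120, 3172 and 3076 in the Huh7 P libraries, against 2929, 3361 and 3160 in those of Huh7 LR, or 3122 ± 48.0 and 3150 ± 216. The Huh7 LR libraries lay on both sides of the Huh7 P libraries, and the log2 ratio of the means was 0.01. GSTP1 supplied 81.9 ± 0.29% of the sum in Huh7 P and 73.6 ± 1.07% in Huh7 LR. GSTA1 and GSTA2 together supplied 0.440%, 0.490% and 0.541% in the Huh7 P libraries, against 6.83%, 6.66% and 7.42% in those of Huh7 LR. Their share was thus small in Huh7 P and still a minor share in Huh7 LR, because GSTP1 is so abundant.

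Without GSTP1, the other 9 genes summed to 566 ± 9.09 FPKM in Huh7 P and 829 ± 23.6 FPKM in Huh7 LR, with no overlap. GSTA1 and GSTA2 added 204 FPKM of the difference of 263 FPKM between these means. They made up 2.70 ± 0.23% of this smaller sum in Huh7 P and 26.5 ± 1.64% in Huh7 LR. MGST1 held the largest share of the 9 in both lines, 49.6 ± 2.02% in Huh7 P and 36.7 ± 2.37% in Huh7 LR. FPKM is scaled to each library, so these sums compare shares of RNA, not amounts per cell.

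**Figure D4:**
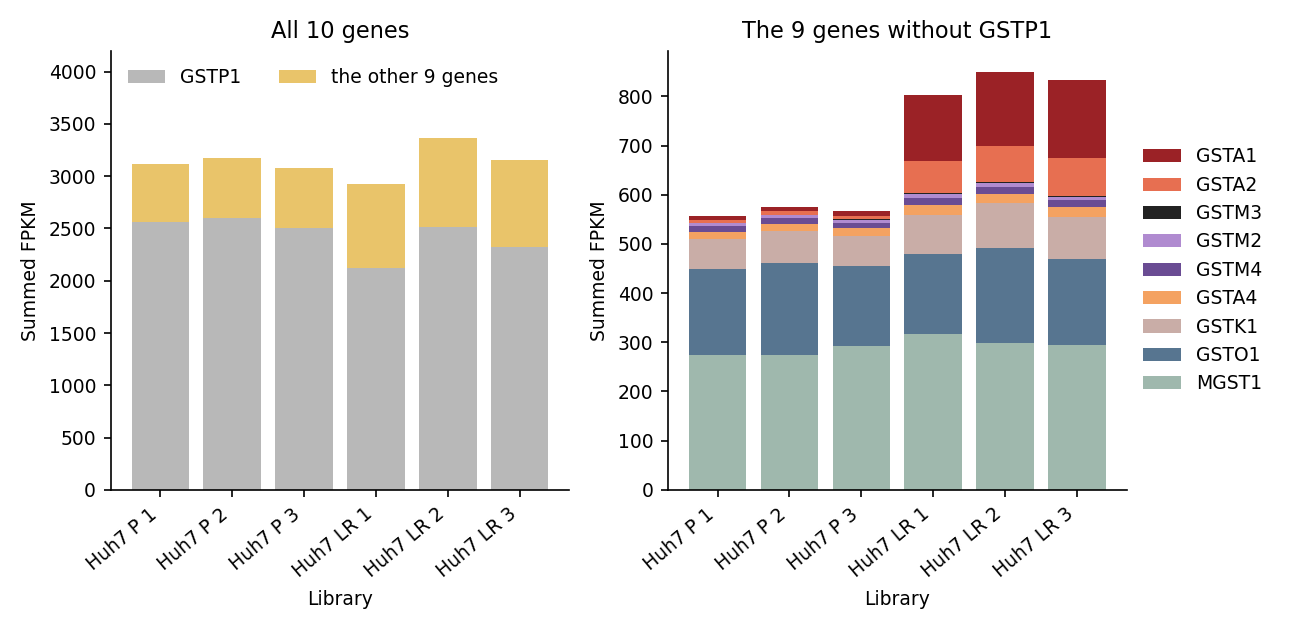
Summed FPKM in each library, for all 10 GST genes (left) and for the 9 genes without GSTP1 (right), both axes starting at 0. The full sum lies between 2929 and 3361 FPKM in all 6 libraries, while the sum without GSTP1 is at most 575 FPKM in Huh7 P and at least 804 FPKM in Huh7 LR.

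Genes of the same family outside the 10 were tested in edgeR's quasi-likelihood fit over all genes. Of 16 such genes in the table, 8 passed the filter on low counts, 2 were higher in Huh7 LR, 1 was lower and 5 did not pass an adjusted p of 0.05, where 23.3% of all genes and loci tested were higher and 22.4% lower. The microsomal gene MGST3 rose from 62.4 ± 3.06 to 117 ± 9.73 CPM, a log2 fold change of 0.91 (edgeR adjusted p = 7.3e-06), with all 3 Huh7 LR libraries above all 3 of Huh7 P. GSTZ1, the zeta class enzyme of tyrosine breakdown, rose by 0.51 on the log2 scale (edgeR adjusted p = 0.00394), again in all 3 libraries. GSTCD, which carries a GST C-terminal domain, fell by 0.40 (edgeR adjusted p = 0.00237), with all 3 Huh7 LR libraries below Huh7 P. The log2 fold changes of GSTM1, GSTO2 and MGST2 were 0.06, 0.04 and -0.11. Those of GSTT2B and ALOX5AP were 0.12 and 0.35, with standard errors of 0.48 and 0.23, and GSTT2B had 12 to 36 counts per library. These values do not show that the genes were unchanged. None of the 8 was called, and their median log2 fold change was 0.09, against 0.0046 over all genes tested.

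Genes that make, break down, use and export glutathione went both ways. Of 55 such genes in 5 lists, 49 were tested, of which 7 were higher, 16 lower and 26 not past the threshold, with a median log2 fold change of -0.04. Of all genes and loci tested, 23.3% were higher and 22.4% lower, and no test compares the lists with these shares. In synthesis and supply, 1 of 10 was higher and 2 were lower. GCLM, the modifier subunit of the rate-limiting enzyme of glutathione synthesis, fell from 42.3 ± 1.02 to 25 ± 0.70 CPM, by 0.76 on the log2 scale (edgeR adjusted p = 1.14e-05). SLC7A11, the cystine importer, fell by 1.38 (edgeR adjusted p = 0.000848), from 42.1 ± 5.29 to 16.2 ± 7.13 CPM. MAT1A, the methionine adenosyltransferase of adult liver, rose by 1.35 (edgeR adjusted p = 4.85e-07). In these 3 genes the lines did not overlap. Without Huh7 P library 1, 2 or 3 or Huh7 LR library 3, the adjusted p of SLC7A11 in edgeR ranged from 0.00257 to 0.00602 at log2 fold changes of -1.28 to -1.44, past 0.05 but not called. It was likewise not called by DESeq2's Wald test or limma-trend on FPKM. The catalytic subunit gene GCLC and the synthetase gene GSS had log2 fold changes of 0.16 and -0.03 and did not pass.

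Among genes of glutathione breakdown, 1 of 11 was higher and 5 were lower, where 23.3% of all tested were higher and 22.4% lower. The lower genes include the dipeptidase gene DPEP1, called at a log2 fold change of -2.71 (SE 0.39). Its counts per library were 88, 50 and 63 for Huh7 P against 5, 13 and 13 for Huh7 LR, a wide gap at low depth. It was past 0.05 but not called without Huh7 P library 1 or 3 or Huh7 LR library 3, at edgeR adjusted p of 0.00223, 0.00162 and 0.00109 and log2 fold changes of -2.54, -2.74 and -2.90. In reduction and peroxidases, 3 of 17 were higher and 6 lower, against the same 23.3% and 22.4% of all tested. The peroxidase genes parted. GPX1 fell by 0.95 on the log2 scale from 212 ± 13.3 CPM, whereas GPX4, which reduces lipid hydroperoxides in membranes, rose by 0.40 from 239 ± 8.54 CPM. The glutathione reductase gene GSR had a log2 fold change of -0.16 and did not pass. GPX8 and GLRX2, named after their values were seen, missed 0.05 without single libraries, GPX8 at -0.28 without Huh7 P library 3. For GLRX2 this held without Huh7 P library 1 (-0.30) or 2 (-0.31) and without Huh7 LR library 1 (-0.35) or 2 (-0.24).

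The exporters of glutathione conjugates split as well, with 1 of 6 higher and 2 lower, against 23.3% and 22.4% of all tested. ABCC1 (MRP1) fell from 14.96 ± 1.93 to 4.67 ± 0.29 CPM, by 1.68 on the log2 scale (edgeR adjusted p = 2.78e-06). ABCC3 (MRP3) rose from 58.9 ± 1.91 to 109 ± 9.41 CPM, by 0.88 (edgeR adjusted p = 7.87e-06). ABCC2 (MRP2), the exporter of the bile canaliculus, fell by 0.25 (edgeR adjusted p = 0.0127), and missed 0.05 without Huh7 P library 2, at -0.23. In all 3 exporter genes the libraries of the lines did not overlap. For ABCC1 the log2 fold change was -0.89 with limma-trend on log2(FPKM + 1), where the added 1 exceeds its mean of 0.673 FPKM in Huh7 LR. Of 5 other glutathione-using enzymes, 1 was higher and 1 lower, HAGH at 0.36 and ESD at -0.28, both named after their values were seen.

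**Figure D5:**
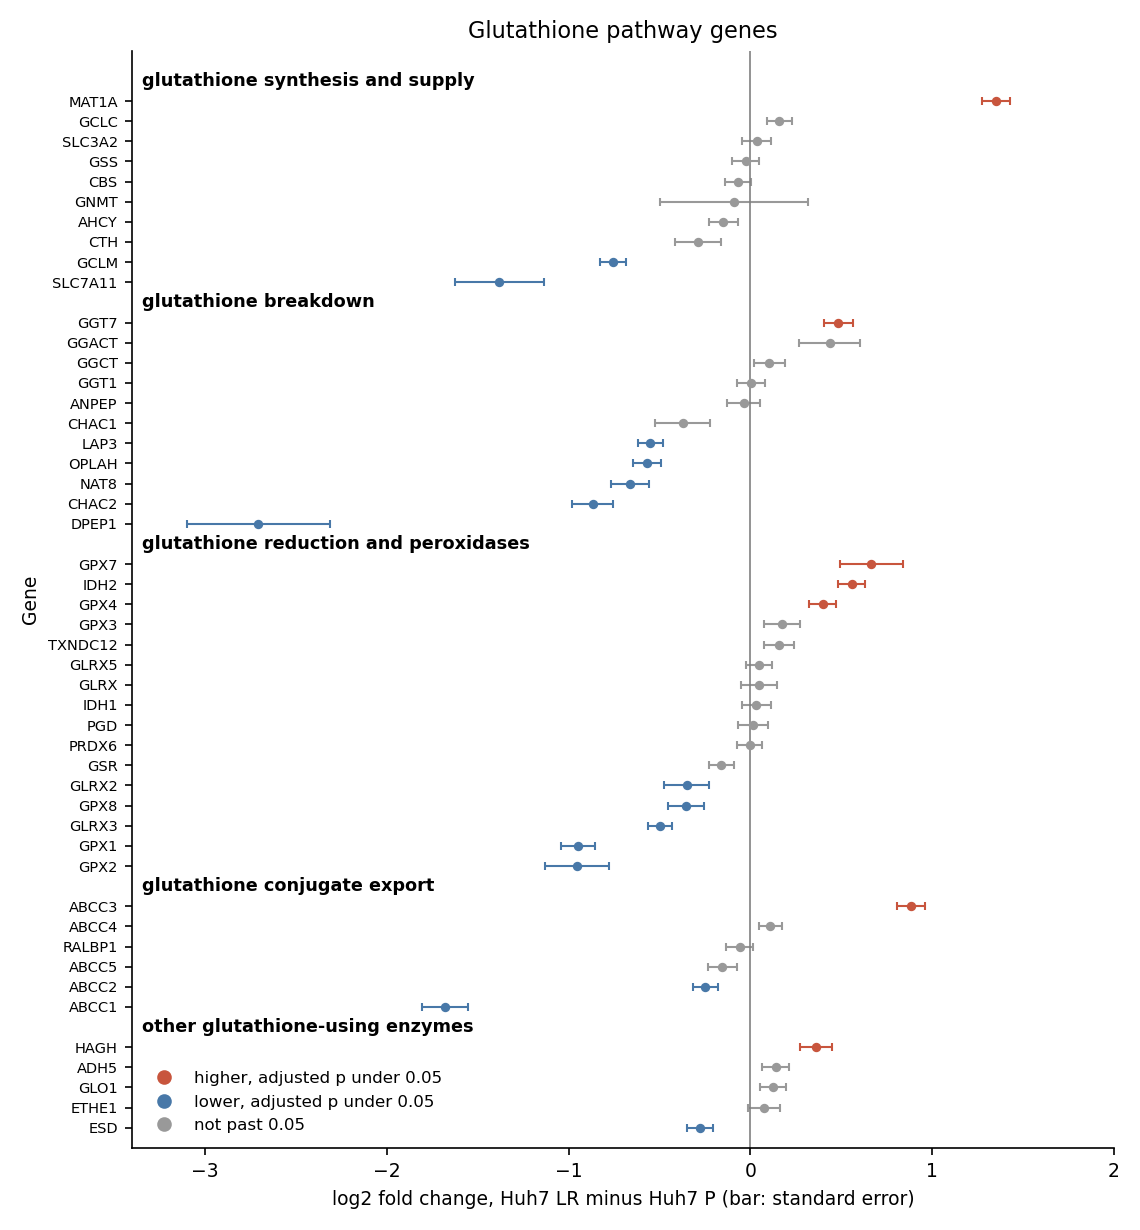
Log2 fold change, Huh7 LR minus Huh7 P, of 48 of the 49 tested genes that make, break down, use or export glutathione, grouped by list, with bars for the SE. Of those drawn, 7 lie to the right and 15 to the left with the adjusted p of edgeR below 0.05.

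Among 18 regulators known to act on GST genes, 8 were higher, 2 lower and 8 not past the threshold, against 23.3% higher and 22.4% lower of all tested, and none was called. NFE2L2, which encodes NRF2, fell from 275 ± 20.2 to 206 ± 13.7 CPM, by 0.42 on the log2 scale (edgeR adjusted p = 0.00146). Its inhibitor gene KEAP1 had a log2 fold change of -0.24 and did not pass. It passed without Huh7 LR library 2 (-0.34), with the replicate number as a block (-0.25) and by DESeq2's Wald test. NR1I2, the xenobiotic receptor PXR, fell by 0.34 (edgeR adjusted p = 0.023). It missed 0.05 with limma-trend on FPKM and without Huh7 P library 2 (-0.32) or 3 (-0.34) or Huh7 LR library 1 (-0.28). The related receptor gene NR1I3 (CAR) stood at -0.31, not past the threshold. HNF4A stood at -0.06 on counts and at 0.37 with limma-trend on FPKM, past the threshold in neither. Among the higher genes, named after their values were seen, were MAFF (0.94), ARNT (0.61), CEBPA (0.58), MAFK (0.56), AHR (0.39), FOXA2 (0.31) and RXRA (0.31). In these 7, all Huh7 LR libraries lay above all Huh7 P libraries. These are transcript levels and say nothing of the activity of the factors.

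Of 20 NRF2 target genes outside glutathione metabolism 6 were higher and 7 lower, against 23.3% and 22.4% of all tested. NQO1, a classic target, fell from 568 ± 25.4 to 340 ± 18.3 CPM, by 0.74 on the log2 scale (edgeR adjusted p = 1.5e-05). HMOX1, the heme oxygenase, rose from 23.5 ± 1.53 to 63.5 ± 16.3 CPM, by 1.44 (edgeR adjusted p = 3.23e-05). SLC48A1, a heme transporter, rose by 1.92 (edgeR adjusted p = 9.01e-06). All 3 genes separated the lines with no overlap. AKR1C3, an aldo-keto reductase, was called at low depth (log2 fold change 2.89), with counts per library of 16, 8 and 3 for Huh7 P against 37, 87 and 82 for Huh7 LR. Its adjusted p in edgeR lay between 0.00133 and 0.00552, past 0.05 but not called, without any of Huh7 P libraries 1 to 3 or Huh7 LR libraries 2 or 3, at log2 fold changes of 2.48 to 3.5. With the replicate number as a block the edgeR adjusted p was 0.00127, again not called. TXNRD1, at 0.16, did not pass in edgeR and passed at 0.21 with limma-trend on FPKM.

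Markers of other cell types were examined beside these results. Fibroblast markers summed to 2.16 to 2.28 CPM in Huh7 P and 5.02 to 8.02 CPM in Huh7 LR, with COL1A1 the most abundant of the 6 and DCN at 0. Of the 4 endothelial markers CDH5 and KDR were at 0, and the sum, mostly PECAM1, was 38.8 to 47.5 CPM in Huh7 P and 65.0 to 71.2 CPM in Huh7 LR. Of the 6 leukocyte markers TYROBP and HLA-DRA were at 0, and the sum, mostly LYZ, was 62.4 to 67.7 CPM in Huh7 P and 10.1 to 14.0 CPM in Huh7 LR. The 4 cholangiocyte markers summed to 415 to 428 CPM in Huh7 P and 416 to 426 CPM in Huh7 LR, with EPCAM the most abundant in FPKM in both lines. COL1A1 rose by 1.84 on the log2 scale, LYZ fell by 2.79 and the cholangiocyte keratin gene KRT19 fell by 2.07, all called and without overlap. COL1A1 was not called without Huh7 P library 3 (1.85) or with limma-trend on FPKM, where the value was 0.56 after adding 1. Of the genes tested, 2 of 2 fibroblast and 2 of 2 endothelial markers were higher, and 1 of 3 leukocyte markers was lower. Of 3 cholangiocyte markers tested, 1 was higher and 1 lower. Over all genes and loci tested, 23.3% were higher and 22.4% lower. VWF, the less abundant of the 2 endothelial markers tested, was named after its values were seen. It had counts per library of 0, 0 and 8 for Huh7 P against 19, 26 and 21 for Huh7 LR. It missed 0.05 without Huh7 P library 1 (2.34) or 2 (2.41) or Huh7 LR library 2 (2.84) or 3 (2.98). Without Huh7 P library 3 no fold is given, since both remaining Huh7 P libraries are at 0. The markers DCN, CDH5, KDR, TYROBP and HLA-DRA were thus at 0 in both lines, and the part of the remaining markers in the GST values was not tested. Of 8 hepatocyte markers 4 were higher and 0 lower, against 23.3% and 22.4% of all tested. Their sum was 43500 to 52590 CPM in Huh7 P and 54990 to 58030 CPM in Huh7 LR. TF, 1 of the 4 and named after its values were seen, rose by 0.48 on the log2 scale and missed 0.05 with limma-trend on FPKM (0.38). The most abundant of the 8 in FPKM was AFP in Huh7 P and ALB in Huh7 LR. ALB, named after its values were seen, rose by 0.74 on the log2 scale, far less than GSTA1 and GSTA2.

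Genes next to the clusters differed little beside GSTA1 and GSTA2. Among the 3 protein-coding genes on either side of the GSTA cluster, TRAM2, TMEM14A, ICK and FBXO9 were higher by log2 fold changes of 0.30 to 0.48, and GCM1 was too low to test. Beside the GSTM cluster, AMPD2 was higher (0.60) and AHCYL1 did not pass (-0.08), while GNAT2 was too low to test. CSF1 was higher (0.59, and 0.22 with limma-trend on log2(FPKM + 1)), and missed 0.05 without Huh7 P library 1 (0.54) or 2 (0.58). GNAI3 was lower (-0.24), and missed it without Huh7 P library 2 (-0.23) or 3 (-0.21) and with limma-trend on FPKM. EPS8L3, which lies inside the span of the GSTM cluster and was named for that position, was lower (-0.49). None of these neighbours was called, and those past the threshold did not overlap between the lines.

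The annotated genes most like GSTA1 were found by the mean squared distance between log2 CPM values over the 6 libraries, each gene centred on its Huh7 P mean. Of 11719 genes outside the GST family with at least 1 CPM in every library, the nearest were TP53INP2 (0.0944), FGA (0.192), KIF5C (0.300), GPR37 (0.354) and ADAM23 (0.430). Their log2 fold changes ran from 3.17 to 3.68, and GSTA2, at a distance of 0.238, would have place 3 if counted. FGA, which encodes the fibrinogen alpha chain made by hepatocytes, measured 100.3, 116 and 116 CPM in Huh7 P and 1009, 1377 and 1325 CPM in Huh7 LR. TP53INP2 measured 5.02, 5.75 and 5.41 CPM in Huh7 P and 70.7, 67.5 and 69.5 CPM in Huh7 LR. Likeness here mostly reflects a fold change of similar size, since the distance is dominated by the gap between the lines. With limma-trend on log2(FPKM + 1) the log2 fold changes were 2.93 for TP53INP2, 3.52 for FGA, 2.503 for GPR37 and 2.75 for ADAM23. That of KIF5C, 3.42 in edgeR, was 1.95, where the added 1 exceeds its mean of 0.415 FPKM in Huh7 P.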

How the data were processed

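The authors deposited read counts and FPKM values per gene for 6 libraries of poly(A) RNA, 3 of Huh7 P and 3 of Huh7 LR. Counts are raw, and the deposited FPKM are per kilobase of transcript and per library depth. The submitters' processing notes name TopHat2, Cufflinks and DESeq without roles or versions, and the build mm10, although the identifiers are human Ensembl genes. The extraction label speaks of insect larvae. Annotation and strand are not given in the sources used here. In the table, 34 lines that name no gene were left out. Library totals were 62738937 to 71427573 counts.

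Counts were fitted in R 4.3.3 with edgeR 4.0.16: filterByExpr (minimum count 10, minimum total 15), TMM factors of 0.977 to 1.03, and the quasi-likelihood test of Huh7 LR against Huh7 P with Benjamini-Hochberg adjustment over all 17531 genes and loci tested. The biological coefficient of variation was 12.7%. A standard error is the log2 fold change divided by the root of its F statistic. Summed genes were refitted within the whole table. Gene positions, exons and shared windows come from GENCODE release 29, in which all 19974 identifiers occur, 19910 with the same symbol. Promoter windows come from RefSeq. Python 3.11.15 and matplotlib 3.10.9 drew the figures. The tests were tested on simulated data.

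The members and lists were chosen with earlier results of these data known. Genes named are the 10 GST genes, the tested genes of the other GST family list, called genes of the other lists, GCLC, GCLM, GSS, GSR, GPX1, GPX4, NFE2L2, KEAP1, NR1I2, NR1I3, HNF4A, NQO1, HMOX1, TXNRD1, ABCC1, ABCC2 and ABCC3, the 3 protein-coding genes on either side of the GSTA and GSTM clusters, and the 5 genes most like GSTA1. A few genes that these groups take in are left unnamed. Others were chosen after their values were seen. Alternatives were, from DESeq2 1.42.0, its size factors and its Wald test; no filter or a minimum of 10 counts everywhere; a replicate block; limma-trend (limma 3.58.1) on log2(FPKM + 0.1) or log2(FPKM + 1), keeping genes that reach 0.5 FPKM in 3 or more libraries; other sums of GSTA and GSTM genes; summed CPM for summed FPKM; and each library left out in turn.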

Additional observations from a re-analysis of the deposited data

How the results depend on the processing

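Of 110 alternative values of the counts, the GSTA sum and the FPKM sum, 108 stayed within 1.5-fold of the count or within the replicate SD of the sum. The exceptions follow from which genes are summed: the log2 fold change of the GSTA sum is 4.07 for GSTA1 alone and 2.83 with GSTA4 included, and 3.70 to 3.84 with each library left out. Over 13 alternatives, 3349 to 4135 genes were higher in Huh7 LR and 3002 to 4033 lower. Over 7 alternatives the log2 ratio of summed GST FPKM was -0.04 to 0.06. The other GST family genes stayed at 2 higher and 1 lower, and glutathione pathway genes at 7 to 8 higher and 14 to 17 lower. The GST genes above 2-fold numbered 3, or 2 with limma-trend on log2(FPKM + 1). Of 130 values of the 10 genes, 127 moved by less than the replicate SD with GSTO1, near 0, taking both signs; the others were GSTA2 at 3.25 with limma-trend on log2(FPKM + 1), and GSTM3 at 1.36 and 0.86 with limma-trend on log2(FPKM + 0.1) and then log2(FPKM + 1). Of 985 values of 77 tested genes, 948 kept direction and side of an adjusted p of 0.05, 23 no longer passed it, 5 newly passed it and 9 reversed, none of these past 0.05 in edgeR. By the stricter rule termed called, 20 of 189 values of the 15 called genes lost the call, all in ABCC1, SLC7A11, DPEP1, AKR1C3 and COL1A1, and 8 of 796 values of the other 62 gained it, among them GPX1 and MAFF. Reversed with limma-trend, the added 0.1 before the added 1, were NR1I3 (0.111, 0.0677) and HNF4A (0.371, 0.367). With single libraries left out, log2 fold changes on both sides of 0 were seen for GSTT2B (-0.256 to 0.463), GSTO2 (-0.0198 to 0.0971), GSS (-0.0732 to 0.0232) and HNF4A (-0.112 to 0.0238). The cause was not tested. The replicate numbers were not taken as pairs. To compare them, the mean of each gene within its line was subtracted from log2 CPM. These deviations correlated across genes at r = 0.0572, 0.0668 and 0.0254 for libraries of the same number. Each was the best match of its number but under 0.1. With a replicate block, 4089 genes were higher and 4033 lower. Genes under the filter of an alternative have no value there. Genes with few counts, such as GSTT2B, have wide standard errors.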
